A study of Homo sapiens with 6 samples.

Results

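The genes described here are 10 genes of the Notch pathway: the receptors NOTCH1, NOTCH2 and NOTCH3, the ligands JAG1, JAG2, DLL1 and DLL4, and the target genes HES1, HES4 and NRARP. They were taken by gene name from the deposited count table, which lists 60835 names, and each of the 10 names stood on a single line. The cells were SW620, an established human colon cancer line that was derived from a lymph node metastasis. RNA was measured in 3 libraries of cells with a control vector (shControl, genotype given as WT, batch_A) and in 3 libraries of cells that carry a stable short hairpin vector against DNM1 (shDNM1, genotype given as DNM1 Knockdown, batch_B). DNM1 encodes dynamin 1, a GTPase that cuts vesicles from the plasma membrane. All 6 libraries came from the same line grown in high-glucose DMEM with serum, and the sources do not say whether the knockdown cells were 1 clone or a pool.

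Notch signalling passes between touching cells. A ligand of the Jagged or Delta-like family binds a Notch receptor on the neighbour, and endocytosis of the ligand, a step that needs dynamin, pulls on the receptor so that ADAM10 and then gamma-secretase can cut it. The freed intracellular domain joins the DNA-binding protein RBPJ and a Mastermind protein and switches on genes such as HES1 and NRARP. In the intestinal crypt this signal maintains progenitors, and HES1 represses ATOH1, the master factor of secretory cells.

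Library totals ran from 12844534 to 13537519 counts. The batch and the vector coincide in the labels and cannot be told apart in any comparison given here. Whether the libraries within a group stem from different cultures is not stated, so p-values reflect the variation among the 6 libraries, and part or all of it may be technical. DNM1 itself was 127, 127 and 133 CPM (counts per 1000000, scaled by TMM) in shControl replicates 1, 2 and 3, and 126, 97.8 and 126 CPM in the libraries labelled shDNM1. Its log2 fold change was -0.15 (SE 0.083), and it did not pass the test across all genes (edgeR quasi-likelihood test, Benjamini-Hochberg adjusted p = 0.189). It passed under 1 of the 16 other settings listed below, without shDNM1 replicate 1, at -0.20 (adjusted p = 0.0399). Without shDNM1 replicate 2 it was -0.037 (adjusted p = 0.718). The second set is therefore called the libraries labelled shDNM1, and no direction below is tied to a measured loss of DNM1. Epithelial markers, 8 genes, summed to 7836 to 8508 CPM in shControl and 9016 to 10200 CPM in shDNM1. Most of this was KRT8 (means of 5776 and 6939 CPM) and KRT18 (1332 and 1636 CPM). The intestinal factor CDX1 was at 0 in every library. KRT20 was low, at means of 1.01 and 0.466 CPM, as was CDX2, at 8.06 and 19.95 CPM. Of the 8 genes, 4 were called higher in shDNM1, CDX2 among them, and EPCAM was called lower.

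The promoters of HES1 and HES4 are shown first. They were chosen because both carry the same short word that RBPJ is known to bind and the genes were called in opposite directions. The call of HES1 was lost under 4 of the 16 other settings, and that of HES4 under none. Whether the word bears on either direction was not tested. HES1 and HES4 encode basic helix-loop-helix repressors. Each window runs from 150 to 61 bases before the start of the gene in RefSeq (GRCh38.p14), 5′ to 3′ on the strand of the gene. Capitals mark GTGGGAA and its shorter core TGGGAA.

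HES1, chr3:194135998-194136087, plus strand: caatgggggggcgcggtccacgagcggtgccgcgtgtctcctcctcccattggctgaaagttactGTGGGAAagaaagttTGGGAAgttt

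HES4, chr1:1000158-1000247, minus strand: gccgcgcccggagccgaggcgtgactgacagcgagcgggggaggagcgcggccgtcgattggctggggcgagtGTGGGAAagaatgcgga

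GTGGGAA begins 85 bases before the start of HES1 and 77 bases before that of HES4, in the same orientation. The longest run that these stretches share is tGTGGGAAagaa, 12 bases long. A further TGGGAA begins 70 bases before the start of HES1. The deposited annotation starts HES4 75 bases further upstream than RefSeq does. As a result, 15 of the bases shown for HES4 lie inside the gene as deposited. The GTGGGAA of HES4, at 1000168 to 1000174, spans the deposited start at 1000172, so it lies wholly upstream only of the RefSeq start. GTGGGAA was searched on both strands, together with its reverse complement TTCCCAC, from 250 bases before to 50 bases after each start. It was found in the windows of 2 of the 9 genes described that have one, HES1 and HES4, and in 2194 of all 35116 windows (6.25%). The core TGGGAA, which every GTGGGAA contains, was present in the same 2 of 9 genes. It was in 8439 of all 35116 windows, a slightly larger share, so the core was not more frequent among the 9 genes. Among the windows of other Notch pathway genes, GTGGGAA was found for HES5, HEY2, HEYL, RBPJ, SPEN, CTBP2 and OLFM4, 7 of 94 windows. The core was found in 23 of these 94 windows. Both shares were close to those over all windows, and no test of enrichment was made. A match is a description of the letters and shows no binding in these cells.

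Of the 10 genes, 9 had enough counts to be tested. NOTCH1, JAG2 and HES4 rose and NOTCH2, DLL4 and HES1 fell, 3 in each direction, so that receptors, ligands and targets each had 1 gene called higher and 1 called lower. The 6 calls among 9 genes (66.7%) stand beside 31.9% of all 16744 genes tested, with 15.6% of all genes called higher and 16.2% called lower. The values of the groups did not overlap for the same 6 genes, against 44.3% of all genes. The median absolute log2 fold change was 0.44 over the 9 genes and 0.24 over all genes tested. Their median signed change was 0.39, against -0.013 over all genes, and without shDNM1 replicate 3 it was 0.016. The 3 lower calls became 1, that of DLL4, without shControl replicate 2, shControl replicate 3 or shDNM1 replicate 3. The rises of NOTCH1, JAG2 and HES4 and the fall of DLL4 were called under all 16 other settings, which included leaving out each library.

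Levels per transcript length (deposited TPM) placed the ligand JAG1 first, at 139 ± 3.78 TPM in shControl (SD, n = 3, as for every ± below). JAG2 followed at 67.5 ± 0.50 TPM, then HES1 at 58.9 ± 4.82 TPM, HES4 at 54.4 ± 5.93 TPM, NOTCH1 at 36.9 ± 0.34 TPM and DLL4 at 21.5 ± 1.70 TPM. NRARP at 4.24 ± 0.71 TPM, NOTCH2 at 1.54 ± 0.11 TPM, NOTCH3 at 0.635 ± 0.16 TPM and DLL1 at 0.227 ± 0.13 TPM were the lowest. The line thus carried mainly Jagged ligands and NOTCH1 at the RNA level. Of the 9 pairs of neighbours in this order, 8 did not overlap in shControl, and HES1 and HES4 overlapped. In the libraries labelled shDNM1 the order changed at HES1, which moved from rank 3 to rank 5, below HES4 and NOTCH1. There the neighbours JAG2 and HES4, NOTCH1 and HES1, and NOTCH2 and NOTCH3 overlapped.

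**Figure D1:**
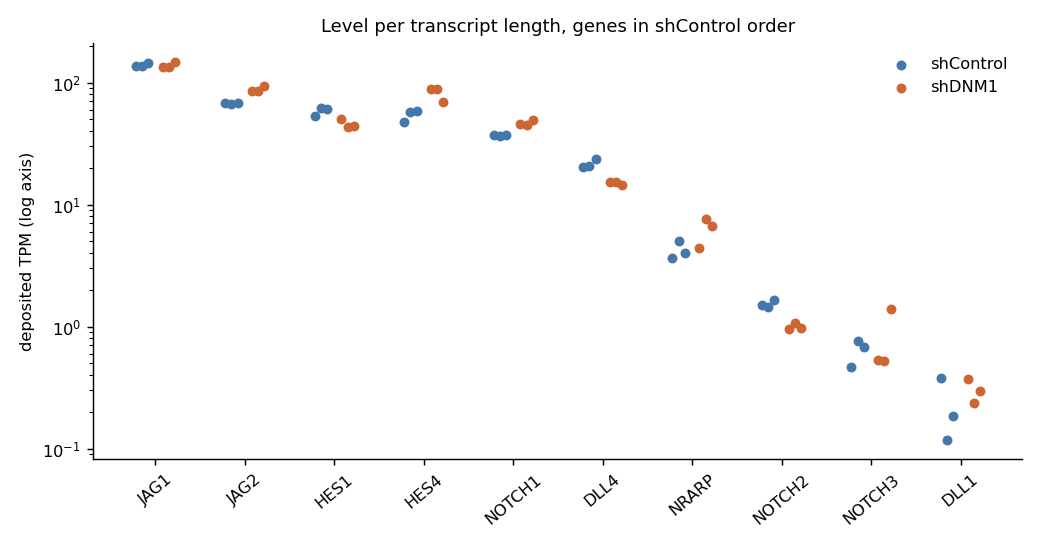
Deposited TPM on a log axis for the 10 genes in shControl order, with 1 point for each library (blue, shControl; orange, shDNM1). JAG1 is highest at 139 TPM in both groups, and DLL1 lies lowest at 0.227 and 0.302 TPM.

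NOTCH1 (ENSG00000148400, chromosome 9, 136494433 to 136546048, minus strand), the main receptor of the line, had 118, 119.6 and 120.3 CPM in the shControl libraries and 149, 158 and 163 CPM in those labelled shDNM1. All 3 shDNM1 libraries lay above all shControl libraries. NOTCH1 rose 1.31-fold, a log2 fold change of 0.39 (SE 0.062, 95% interval 0.26 to 0.52), with an adjusted p of 9.62e-05 (edgeR quasi-likelihood test). The antisense gene AL592301.1 overlaps NOTCH1 and held 39 counts in shControl and 31 in shDNM1 in total, few beside the reads of NOTCH1.

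NOTCH2 (ENSG00000134250, chromosome 1, 119911553 to 120100779), the second receptor of the intestinal crypt, went the other way from a far lower level. It had 5.52, 5.52 and 6.24 CPM in shControl and 3.65, 4.31 and 3.73 CPM in shDNM1, with no overlap. NOTCH2 fell by 0.57 on the log2 scale (SE 0.19, edgeR adjusted p = 0.0291). This call rested on few counts, 228 in shControl and 150 in shDNM1 in total. It was lost without shControl replicate 1, 2 or 3 (adjusted p = 0.0622, 0.0566 and 0.116) and without shDNM1 replicate 1 or 3 (adjusted p = 0.0633 and 0.0770), with DESeq2 (adjusted p = 0.0757) and on the log2(TPM + 1) and log2(TPM + 0.1) scales (limma adjusted p = 0.0777 and 0.0943). NOTCH2 also has near-identical partial copies, with which reads could have been shared. The copy with most counts, NOTCH2NLC, had 277 counts in shControl and 200 in shDNM1 in total, and its log2 fold change of -0.43 (adjusted p = 0.0698) did not pass. What share of the NOTCH2 difference comes from the copies was not tested.

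NOTCH3 (ENSG00000074181, chromosome 19, 15159038 to 15200995), a receptor best known from vascular smooth muscle, had 1.30, 2.21 and 1.93 CPM in shControl. In shDNM1 it had 1.55, 1.59 and 4.11 CPM, and shDNM1 replicate 3 alone lay above the controls. The log2 fold change of 0.42 (SE 0.37) did not pass (edgeR adjusted p = 0.429). Without shDNM1 replicate 3 it was -0.20 (adjusted p = 0.732). Markers of mural cells and fibroblasts, 8 genes, summed to 37.0 to 45.8 CPM in shControl and 49.0 to 63.9 CPM in shDNM1. Of these, COL3A1 was at 0 in every library, DCN and COL1A2 had at most 2 counts in any, and PDGFRB and LUM rose. The relation of these markers to the NOTCH3 values was not tested.

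JAG1 (ENSG00000101384, chromosome 20, 10637684 to 10673999), the most abundant ligand, had 262, 272 and 279.5 CPM in shControl and 266, 281.5 and 298 CPM in shDNM1. The groups overlapped. The log2 fold change was 0.06 (SE 0.062, edgeR adjusted p = 0.533), and its 95% interval of -0.07 to 0.19 limits a difference to 94.95% to 114% of control. On the log2(TPM + 1) scale the sign turned, at -0.0026 (adjusted p = 0.978).

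JAG2 (ENSG00000184916, chromosome 14, 105140982 to 105168824), the other Jagged ligand, had 126, 129 and 129 CPM in shControl and 166, 173 and 181.5 CPM in shDNM1. It was higher in all 3 shDNM1 libraries than in any control. JAG2 rose 1.35-fold, a log2 fold change of 0.44 (SE 0.062), and the adjusted p of 2.85e-05 was the smallest of the 9 genes (edgeR quasi-likelihood test). Neither Jagged gene is overlapped by a gene with more than 2 counts in a group.

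DLL4 (ENSG00000128917, chromosome 15, 40929340 to 40939073), a Delta-like ligand of crypt epithelium and of sprouting vessels, had 22.5, 23.6 and 26.4 CPM in shControl and 17.6, 18.6 and 16.9 CPM in shDNM1. Every shDNM1 library was below every control. DLL4 fell to 73.2% of control, a log2 fold change of -0.45 (SE 0.11, edgeR adjusted p = 0.00300). Markers of endothelium, 8 genes, summed to 20.1 to 23.7 CPM in shControl and 23.2 to 28.2 CPM in shDNM1. The defining gene KDR was at 0 and CDH5 and TEK had at most 2 counts in any library, while PECAM1 was at 13.2 ± 1.07 and 13.0 ± 1.46 CPM. TIE1 and VWF rose (edgeR adjusted p = 0.00501 and 0.0490). All libraries were of SW620 cells, and the relation of these markers to the DLL4 difference was not tested.

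DLL1 (ENSG00000198719, chromosome 6, 170282206 to 170306565), the Delta-like ligand of secretory progenitors, had 6, 2 and 3 counts in shControl and 6, 4 and 5 in shDNM1. It did not pass the filter on low counts. Without that filter its log2 fold change was 0.46 (edgeR adjusted p = 0.758), and a difference was not detectable at this depth. FAM120B overlaps it on the opposite strand with 1832 and 1672 counts in total, and since the sources do not say whether counting used strand, the few DLL1 reads are uncertain.

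**Figure D2:**
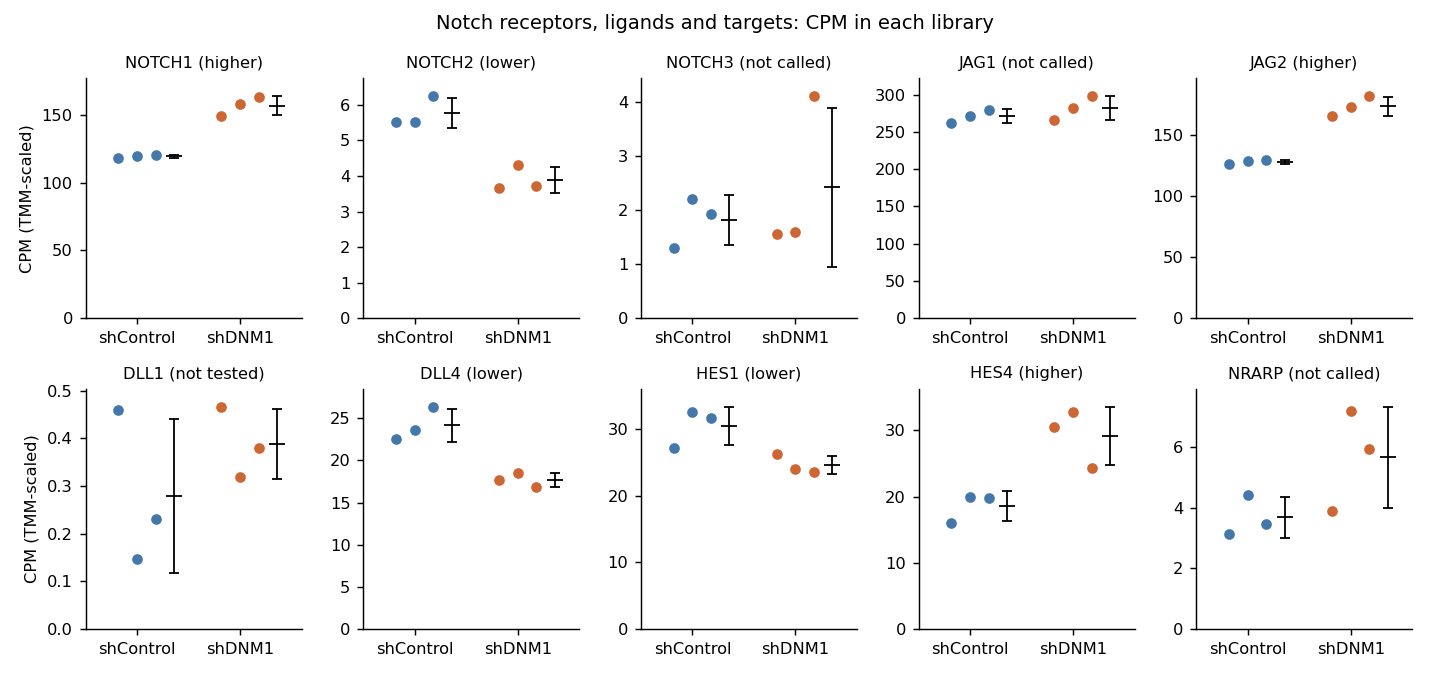
TMM-scaled CPM of each gene in each library, from 0, with points for replicates 1 to 3 from left to right and bars for the mean and SD of 3 libraries. NOTCH1, JAG2 and HES4 lie higher in shDNM1 and NOTCH2, DLL4 and HES1 lower, without overlap, and NOTCH3 is spread by shDNM1 replicate 3 at 4.11 CPM.

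HES1 (ENSG00000114315, chromosome 3, 194136148 to 194138732), the classical Notch target in the gut, had 27.2, 32.6 and 31.7 CPM in shControl and 26.3, 23.99 and 23.6 CPM in shDNM1. The groups did not overlap, with shDNM1 replicate 1 close below shControl replicate 1. HES1 fell to 80.8% of control, a log2 fold change of -0.31 (SE 0.098, edgeR adjusted p = 0.0216). The call was lost without shControl replicate 2 or 3 (adjusted p = 0.0991 and 0.0928) and without shDNM1 replicate 2 or 3 (adjusted p = 0.0560 and 0.0823).

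HES4 (ENSG00000188290, chromosome 1, 998962 to 1000172) rose. It had 16.0, 19.96 and 19.8 CPM in shControl and 30.5, 32.8 and 24.3 CPM in shDNM1, again with no overlap. This 1.57-fold rise was a log2 fold change of 0.65 (SE 0.12, edgeR adjusted p = 0.000466).

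NRARP (ENSG00000198435, chromosome 9, 137299631 to 137302271) encodes an ankyrin repeat protein that is induced by Notch and restrains it. It had 3.14, 4.42 and 3.47 CPM in shControl and 3.88, 7.17 and 5.93 CPM in shDNM1. Replicates 2 and 3 of shDNM1 lay above all controls, and replicate 1 lay among them. The log2 fold change of 0.62 (SE 0.23) did not pass, with an edgeR adjusted p of 0.0526. It passed without shDNM1 replicate 1 (adjusted p = 0.00427) or shControl replicate 2 (adjusted p = 0.0442), and under 4 further settings.

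**Figure D3:**
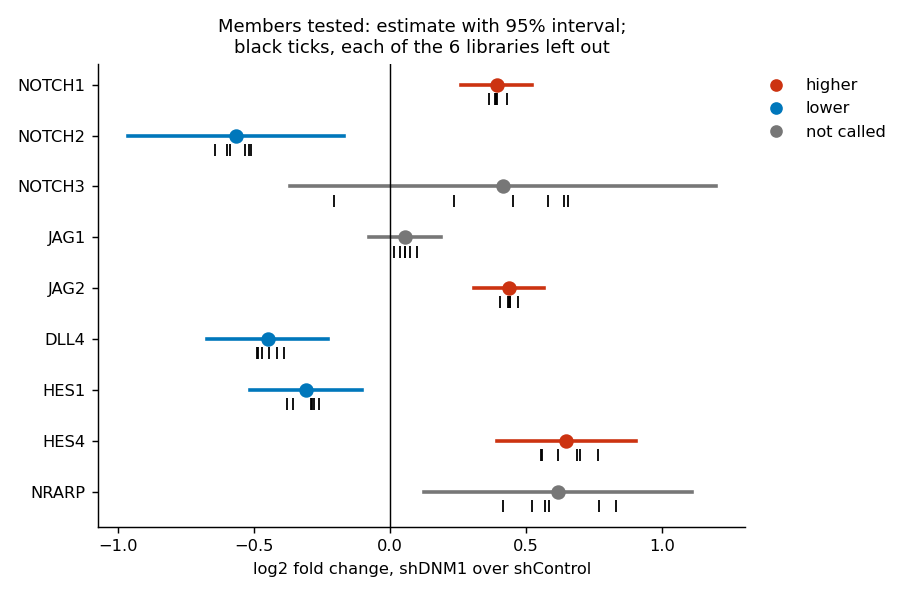
Log2 fold change (shDNM1 over shControl) of the 9 tested genes with its 95% interval, and as black ticks the estimate with each of the 6 libraries left out. The ticks of NOTCH1, JAG2, DLL4 and HES4 stay on their side of 0 within 0.36 to 0.43, 0.41 to 0.47, -0.49 to -0.39 and 0.56 to 0.77, and those of NOTCH3 cross 0.

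Ratios of genes within a library do not depend on how libraries are scaled. The ratio of HES4 to HES1, per transcript length, was 0.892, 0.929 and 0.947 in shControl and 1.76, 2.07 and 1.56 in shDNM1, so the genes were near parity in the controls and HES4 was ahead in every shDNM1 library. The ratio of JAG2 to JAG1 was 0.486 ± 0.010 in shControl and 0.633 ± 0.0068 in shDNM1. DLL4 made up 9.41% ± 0.49 of the TPM summed over the 4 ligands in shControl and 6.26% ± 0.49 in shDNM1. NOTCH1 made up 94.4% ± 0.47 of that over the 3 receptors in shControl and 96.3% ± 0.77 in shDNM1, and NOTCH2 3.94% ± 0.24 and 2.07% ± 0.20. The summed receptor TPM was 39.1 ± 0.41 in shControl and 48.3 ± 2.64 in shDNM1, and the summed ligand TPM 228 ± 5.85 and 242 ± 12.4. These are descriptions of genes whose separate tests are given above. The receptor NOTCH4 and the ligand DLL3 are outside these sums. NOTCH4 was at 1.81 ± 0.17 TPM in shControl and 1.55 ± 0.39 in shDNM1, above NOTCH2 and NOTCH3 on average. DLL3 was at 3.93 ± 0.29 and 2.49 ± 1.22 TPM.

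**Figure D4:**
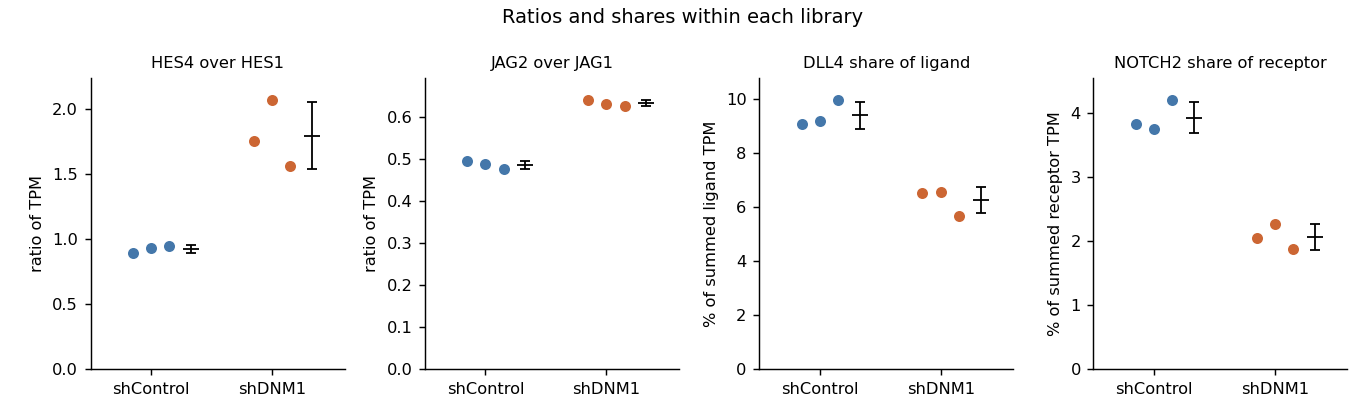
Ratios and shares of TPM within each library, from 0, with bars for the mean and SD of 3 libraries. HES4 over HES1 goes from 0.922 to 1.79 and JAG2 over JAG1 from 0.486 to 0.633, and the shares of DLL4 and NOTCH2 are lower in every shDNM1 library.

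The other genes of the pathway were counted from lists of 76 genes in all, of which 65 were tested. Among these, 10 rose and 11 fell, 32.3% called, which is near the background of 31.9%, and their median log2 fold change was 0.015. Without shControl replicate 2 or 3, 6 and 5 rose. RBPJ, the DNA-binding partner of every Notch receptor, had 119, 132 and 135 CPM in shControl and 72.0, 70.4 and 69.2 CPM in shDNM1. Every shDNM1 library lay far below the controls. RBPJ fell by 0.87 on the log2 scale (SE 0.069, edgeR adjusted p = 3.08e-08), to 54.8% of control. Its 4 listed pseudogenes were at 0 counts in every library.

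The coactivator MAML2, a Mastermind protein that bridges RBPJ and the acetyltransferases, also fell, from 69.1 ± 4.70 to 49.95 ± 1.71 CPM. The acetyltransferase KAT2A rose 1.35-fold and the RBPJ-binding coregulator SNW1 1.18-fold. The SNW1 call was lost under 4 of the 16 other settings, both TPM scales and without shControl replicate 1 or 3 (adjusted p = 0.0993 and 0.0945). Of the 8 genes of the nuclear complex 2 rose, 2 fell and 4 did not pass. Over all genes tested the share called was 31.9%. Among the corepressors, which silence RBPJ sites in the absence of the receptor domain, TLE3, NCOR1 and SPEN did not pass and had log2 fold changes of -0.18, -0.14 and 0.09 (adjusted p = 0.0512, 0.0948 and 0.289). TLE3 passed, as lower, under 8 of the 16 other settings (adjusted p = 0.0107 to 0.153 over all 16), among them limma-voom, upper quartile scaling and leaving out shDNM1 replicate 2 (adjusted p = 0.0425, 0.0264 and 0.0184). NCOR1 passed, also as lower, under 4 of the 16, which were upper quartile scaling, library size alone and both TPM scales (adjusted p = 0.0223 to 0.256 over all 16).

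Among other HES and HEY factors, 1 of 6 tested genes rose, 1 fell and 4 did not pass. That is 33.3% called, beside 31.9% of all genes tested. HES6, an atypical member that opposes HES1, had 209, 208 and 204 CPM in shControl and 136, 153 and 157 CPM in shDNM1, a fall to 71.8% of control (adjusted p = 2.11e-05). HES2 rose from 9.02 ± 0.40 to 14.99 ± 0.81 CPM (adjusted p = 0.000247). HEY1 and HES7 had log2 fold changes of 0.32 and -0.39 (adjusted p = 0.230 and 0.295). HES3 and the non-canonical ligand gene DLK1 were at 0 in all 6 libraries. DLK2, a relative of DLK1, fell from 5.21 ± 0.35 to 2.75 ± 0.12 CPM, while DLL3 and NOTCH4 did not pass (log2 fold changes -0.61 and -0.17, adjusted p = 0.139 and 0.637). DLL3 passed without shDNM1 replicate 1 (adjusted p = 0.0115).

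Of the 9 proteases that cut Notch, 2 rose, 1 fell and 6 did not pass (33.3% called, beside 31.9% of all genes tested). ADAM10, which makes the cut set off by the ligand, fell from 212 ± 9.91 to 171 ± 2.62 CPM (edgeR adjusted p = 0.000759). FURIN, which processes the receptor on its way to the surface, rose from 49.2 ± 1.97 to 61.4 ± 1.94 CPM (adjusted p = 0.00236). ADAM17, a related protease, rose 1.17-fold (adjusted p = 0.0361), a call lost without shControl replicate 1, 2 or 3 (adjusted p = 0.123, 0.105 and 0.0684) or shDNM1 replicate 3 (adjusted p = 0.203) and under 4 scaling settings. The 6 that did not pass were the gamma-secretase genes, of which APH1A had the smallest p (log2 fold change -0.18, adjusted p = 0.0956). APH1A passed under 5 of the 16 other settings, among them leaving out shDNM1 replicate 2 (adjusted p = 0.00968).

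Enzymes that add sugars to the receptor gave 1 rise and 3 falls among 9 (44.4% called, beside 31.9% of all genes tested). GXYLT2, a xylosyltransferase, had 3.53, 6.41 and 3.62 CPM in shControl and 0.854, 1.28 and 1.22 CPM in shDNM1, a log2 fold change of -2.01 (SE 0.31, edgeR adjusted p = 7.59e-05). LFNG, a Fringe enzyme, had 42.2, 47.4 and 49.3 CPM in shControl and 31.6, 35.9 and 30.9 CPM in shDNM1. No shDNM1 library reached the controls for either gene, and LFNG fell to 70.8% of control (adjusted p = 0.000291). XXYLT1, which extends the xylose chain, fell from 32.99 ± 2.06 to 24.9 ± 4.10 CPM. Per transcript length the Fringe gene MFNG was above LFNG in shControl, at 186 ± 7.31 and 57.7 ± 4.01 TPM. MFNG rose 1.15-fold (adjusted p = 0.0241). This call was lost without shControl replicate 2 or 3 (adjusted p = 0.0723 and 0.131) or shDNM1 replicate 2 or 3 (adjusted p = 0.0644 and 0.0850) and on both TPM scales.

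Genes for the trafficking of ligands and receptors, the step in which dynamins act, gave 1 call among 15 tested (6.67%). Over all genes tested the share called was 31.9%. DTX3, a Deltex ubiquitin ligase, fell from 19.0 ± 2.34 to 13.0 ± 0.34 CPM (edgeR adjusted p = 0.00222). NUMBL, NEURL1B and MIB2 were next, with log2 fold changes of 0.23, -1.17 and 0.23 (adjusted p = 0.0505, 0.0515 and 0.0575). NUMBL, an endocytic inhibitor of Notch, passed under 4 of the 16 other settings, MIB2 under 4 and NEURL1B under 6. NUMBL passed without shDNM1 replicate 1 (adjusted p = 0.0271). MIB2 and NEURL1B, ubiquitin ligases for ligands, passed without shDNM1 replicate 2 (adjusted p = 0.0370 and 0.0369), and NEURL1B also without shControl replicate 2 (adjusted p = 0.0480).

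The 3 genes for turnover of the freed receptor domain were all called, beside 31.9% of all genes tested. CDK8, a kinase that marks the domain, fell to 72.6% of control (adjusted p = 0.000225), while its partner cyclin CCNC rose 1.18-fold and FBXW7, the ubiquitin ligase adaptor that removes the domain, rose 1.21-fold (adjusted p = 0.0195 and 0.0441). The calls of CCNC and FBXW7 were lost without shControl replicate 2 (adjusted p = 0.116 and 0.222) or shControl replicate 3 (adjusted p = 0.0621 and 0.117). That of FBXW7 was also lost without shDNM1 replicate 2 or 3 (adjusted p = 0.114 and 0.157). In all, the call of CCNC was lost under 4 of the 16 other settings and that of FBXW7 under 8.

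**Figure D5:**
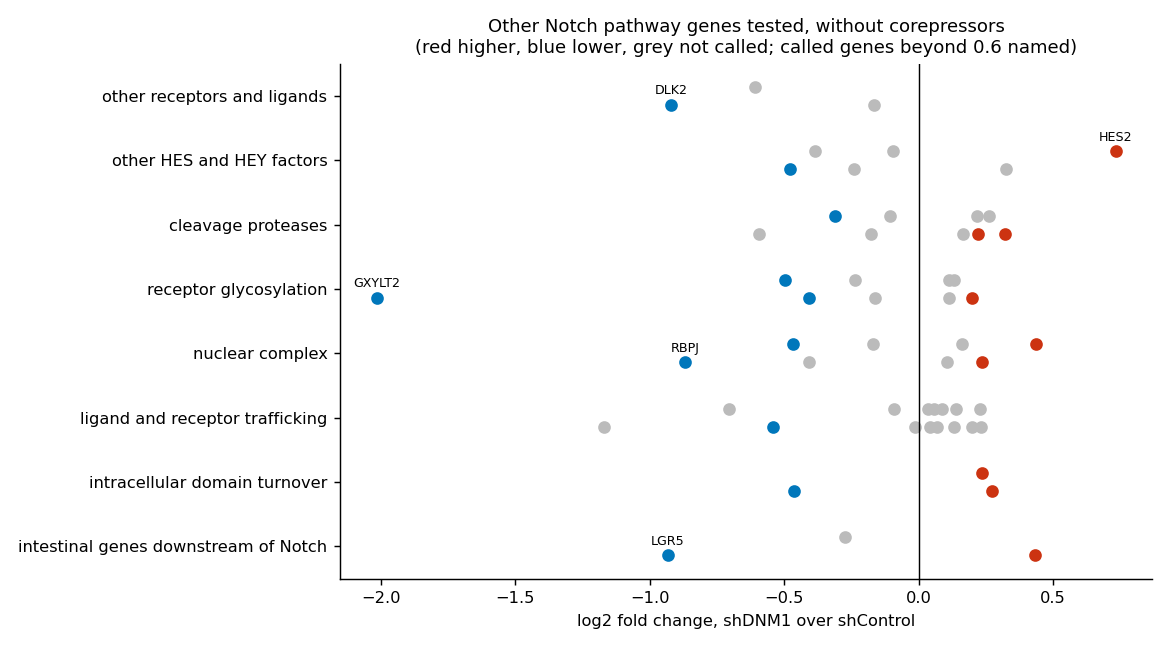
Log2 fold change (shDNM1 over shControl) of the other Notch pathway genes tested, by role and without the corepressors, with red for higher, blue for lower and grey for not called. GXYLT2 at -2.01 lies farthest from 0, and RBPJ lies at -0.87.

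Of intestinal genes listed as downstream of Notch, ATOH1, the gene that HES1 represses, had 0 counts in all 6 libraries. So did the endocrine factor NEUROG3 and the stem cell marker OLFM4. A count of 0 allows up to 3 counts, or 0.221 to 0.239 CPM a library, a limit that covers counting error only. Of the 3 that were tested, 2 were called (66.7%), beside 31.9% of all genes tested. LGR5, a stem cell receptor, fell from 34.5 ± 4.84 to 18.1 ± 1.63 CPM (edgeR adjusted p = 5.31e-06). ASCL2, a stem cell transcription factor, rose 1.35-fold (adjusted p = 5.09e-05). The relation of LGR5 and ASCL2 to Notch in these cells was not tested. GFI1, a secretory lineage repressor, had a log2 fold change of -0.27 (adjusted p = 0.0520) and passed under 5 of the 16 other settings, among them leaving out shDNM1 replicate 2 (adjusted p = 0.0487).

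The genes whose levels over the 6 libraries ran closest to NOTCH1 were DGKZ, SLC12A4 and VPS25, among 11436 genes compared by the root mean square distance of centred log2 CPM. Their distances were 0.016, 0.020 and 0.021. Those closest to JAG2 were VMA21, CLEC16A and DOCK9, at 0.019, 0.020 and 0.020. HES4 had no neighbour as near: DNASE1L1, DDIT3 and CLDN19 lay at 0.074, 0.076 and 0.095. The distance is dominated by the difference between the vectors, which these genes share with many others, and it is given with no test.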

How the data were processed

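The authors' deposited counts are whole numbers of reads for each gene (build GRCh38, per the submitters' processing notes), and the deposited TPM table was recorded as a score because its lines sum to more than 1000000 for each library. Over unique names it sums to 1000000. For the aligner, counter, annotation release and strand setting: not given in the sources used here. In both tables, 2328 lines repeated 453 names with identical values and were collapsed, leaving 60835 names.

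The main test was the quasi-likelihood F test of edgeR 4.0.16 (R 4.3.3) after filterByExpr at its defaults and TMM scaling. P-values of the 16744 genes tested were adjusted by the Benjamini-Hochberg method, with a threshold of 0.05. Intervals are 95%. Every adjusted p is from this test unless another tool is named. CPM are scaled by TMM. Groups came from the sample titles. The test was tested on simulated data. All pairs of libraries differed by more than sampling noise (lowest chi-square per gene 2.42), so each counted as 1 sample.

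The 10 genes and the lists were chosen with earlier results of these data known. Named were all 10 genes, DNM1, up to 4 genes of each other list with the smallest p and any call against the majority of its list. Of these, 1 gene that this rule names is not reported here. Neighbours in pattern were the 3 nearest genes with an average log2 CPM of at least 2. Epithelial, endothelial, mural and leukocyte marker lists were fixed with them. The leukocyte list, 6 genes, summed to 3.54 to 4.91 CPM in shControl and 1.52 to 2.55 CPM in shDNM1, with CD3E at 0. Coordinates are those of the deposited table and promoters those of RefSeq (GRCh38.p14). Alternatives were RLE, upper quartile and no scaling, filters of none and a CPM of 1 in 3 libraries, DESeq2 1.42.0, limma-voom (limma 3.58.1), limma-trend with TPM as log2(TPM + 1) or log2(TPM + 0.1), a block for the replicate number, and each library left out in turn.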

Additional observations from a re-analysis of the deposited data

How the results depend on the processing

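Across the 16 other settings NOTCH1, JAG2, DLL4, HES4 and RBPJ kept their calls and directions, and NOTCH2 kept its call under 8 and HES1 under 12. NRARP was called under 6. The sign turned for NOTCH3 (-0.20 to 0.66 with 1 library left out, -0.20 without shDNM1 replicate 3), for JAG1 (-0.0026 on log2(TPM + 1) and -0.0027 on log2(TPM + 0.1)) and for NOTCH4 (-0.29 to 0.041 with 1 library left out, 0.041 without shDNM1 replicate 1), none of them called, and the cause was not tested. With 1 library left out, 3 to 4 of the 10 genes rose and 1 to 2 fell, and of the other pathway genes 5 to 14 rose and 11 to 16 fell. Of all genes 1903 to 2939 rose and 2034 to 2951 fell. On both TPM scales 5 other pathway genes rose in place of 10, and the cause was not tested. Those scales moved the share of higher calls among all calls from 49.0% to 38.8%, with medians over all genes of -0.067 and -0.075 in place of -0.013, and the median of the 9 genes to 0.12 and 0.21. The order of levels did not change with TMM-scaled counts per relative length. Within a library that measure ranks genes by counts per length, as TPM does, so it is not an independent check. The shorter word TGGGAA lies inside GTGGGAA, so HES1 and HES4 had to be found again, and no other of the 10 genes was added. Windows with the word went from 2194 to 8439 over all windows, and from 7 to 23 of 94 for other pathway genes. Same-numbered libraries deviated together with correlations of 0.102, 0.063 and -0.033, and differently numbered ones with -0.098 to 0.033. Whether same-numbered libraries share more than the number cannot be told from these values. With the replicate number as a block, 4 of the 10 genes rose and 3 fell, 12 other pathway genes rose and 16 fell, and of all genes 2964 rose and 3116 fell. NRARP was the added call (0.61, adjusted p = 0.0201). Depth limits DLL1, NOTCH3, NOTCH2 and NRARP most.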
